A study of Neurospora crassa with 12 samples.

Results

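Among the genes of germinating Neurospora crassa conidia, 250 of the 10592 in the count table held a nearly level share of the counts from the fresh spore to the first branching hypha. They were chosen by a rule on measured values. Counts were divided by the total of their library and multiplied by 1000000 (CPM), the 3 libraries of each stage were averaged, and a gene was kept when all 4 stage means were at least 50 CPM and the highest exceeded the lowest by at most 25%. That quotient of highest to lowest stage mean is called the stage ratio here. The 4 genes that met both limits and stood on the study's list of 177 secondary metabolite cluster genes were left out. All 1671 genes that reached the floor of 50 CPM in every stage served as the background, and the 250 steady genes made up 15.0% of them.

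The fungus was the wild-type mat A strain FGSC2489, carrying no deletion or transgene. Conidia, the asexual spores, were spread on cellophane over potato dextrose agar (PDA) at 25°C, as the labels and methods give it, although a table of the study lists a higher temperature for this medium, and were kept in constant light. RNA was taken at 15 min (fresh spores), 120 min (first polar growth), 240 min (doubling of the long axis) and 360 min (first hyphal branching), with 3 libraries per stage. The time points were set by microscopy so that, by the labels, roughly over 70% of the conidia had reached the same stage, while the methods ask only for a majority of active spores, so each library was a mixture. The methods call the 3 libraries of a stage biological replicates, each of tissue gathered from several plates in 1 collection. Whether the replicates came from separate spore harvests is not stated, and part or all of the spread between libraries may be technical. Fewer cells of a kind cannot be told apart from less RNA per cell.

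A conidium is a resting cell that carries stored mRNA and ribosomes, and germination turns it within hours into a growing hypha with new wall, membrane and cytoplasm. Genes with level expression through such a change are commonly sought as references for other measurements, and the housekeeping functions of translation, mitochondrial biogenesis and intermediary metabolism are the usual candidates. A level share of the counts is a relative measure, since the total RNA of a cell also grows during germination and was not measured. The labelled spores carried their known transcripts. The mean of eas, which encodes the hydrophobin coat of conidia, fell from 3754 ± 159 CPM at 15 min (SD, n = 3) to 9.32 ± 1.67 CPM at 120 min, and that of con-6, a conidiation gene, fell from 366 ± 16.0 to 15.6 ± 3.6 CPM (edgeR, adjusted p = 3.58e-09 and 1.91e-11).

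Steadiness was uncommon among well expressed genes. The median stage ratio of the 1671 genes at the floor was 1.69, with quartiles of 1.35 and 2.31, and 105 of them had a ratio above 4. Of the 250 steady genes, 32 had a stage ratio of at most 1.1, and the median was 1.18. Their levels ran from 53.0 to 4937 CPM with a median of 140 CPM, close to the floor for many of them: 88 lay under 100 CPM, 110 between 100 and 300 CPM, 28 between 300 and 1000 CPM and 24 at 1000 CPM or more. The share of genes that were steady was 21.5% of the 410 floor genes under 100 CPM, 14.3% of the 768 between 100 and 300 CPM, 8.46% of the 331 between 300 and 1000 CPM and 14.8% of the 162 above that. A gene of low mean that changed widely could fall under the floor in a stage and so leave the background. The floor thus favours steady genes in the lowest range, and no trend with level is read from these shares. Together the steady genes took between 9.54% and 11.4% of the counts of a library.

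**Figure D1:**
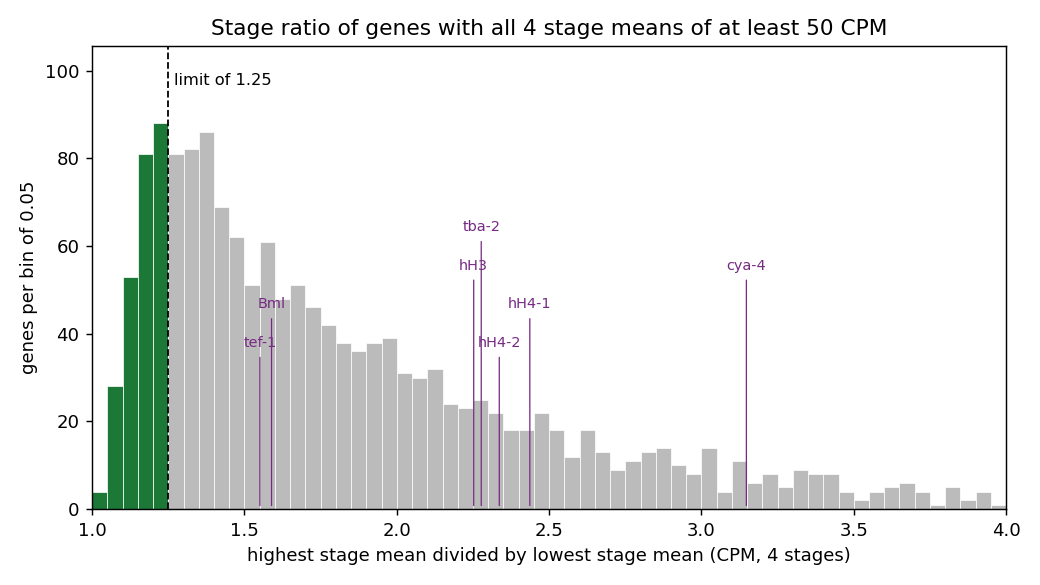
Number of genes by stage ratio, the highest of the 4 stage means divided by the lowest, for the genes with all stage means of at least 50 CPM. Bars in green lie within the limit of 25% (the 4 genes of the study's list included), 105 genes beyond a ratio of 4 are not drawn, and lines mark common reference genes, all of them to the right of the limit.

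Libraries held between 51555784 and 84946272 counts, and the lowest count of any steady gene in a library was 101. In 249 of the 250 genes every count was at least 1000. The part of counting error in the spread between libraries was not separated. The libraries were not alike in composition. Ribosomal RNA genes took 11.7% of the counts in 360 min replicate 3 and 10.2% in 15 min replicate 2, against 1.98% to 5.53% in the other libraries, and CPM of all other genes is lowered where that share is high. Of the 250 steady genes, 113 had their lowest CPM of the 12 libraries in 360 min replicate 3 and 55 in 15 min replicate 2. The median gene in 360 min replicate 3 stood at −0.13 relative to its own 12-library mean on the log2 scale, with a lower quartile of −0.27. With ribosomal RNA genes taken out of the totals these became −0.02 and −0.16. Without 360 min replicate 3 the rule found 265 genes, 231 of them shared with the 250.

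**Figure D2:**
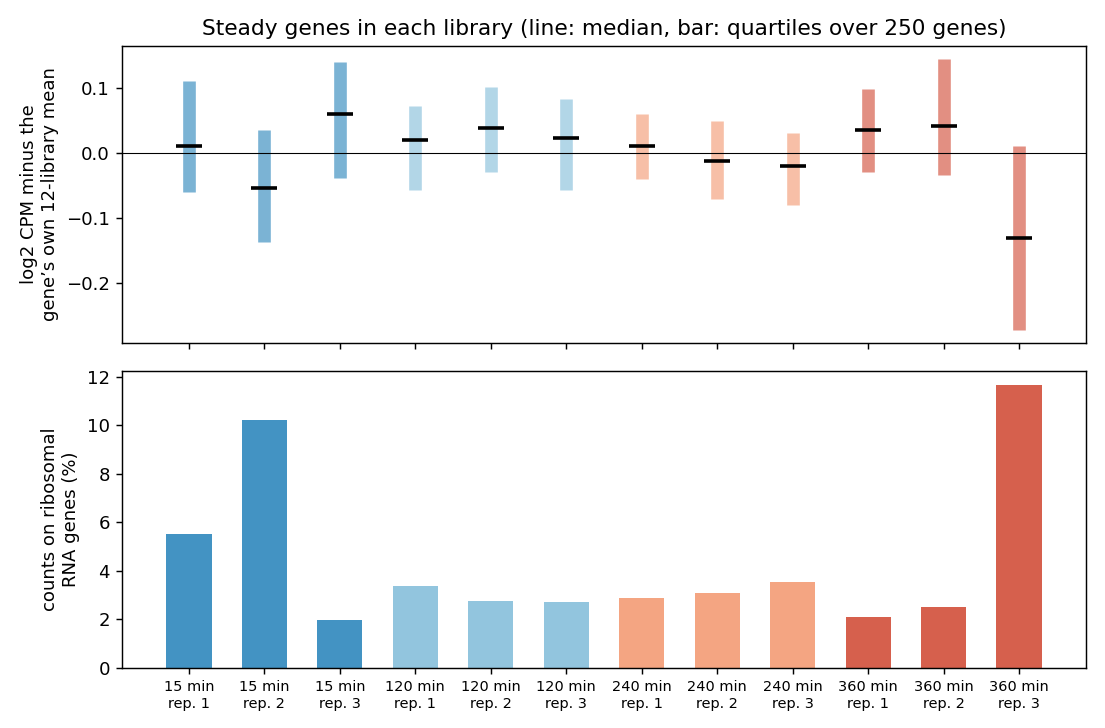
Upper panel, log2 CPM of the 250 steady genes minus each gene's own mean over the 12 libraries, as median and quartiles per library. Lower panel, percent of counts on ribosomal RNA genes in the same libraries. The 2 libraries with the highest ribosomal RNA share, 11.7% and 10.2%, have the lowest medians, −0.13 and −0.05.

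The genes with the smallest stage ratios included a mitochondrial protease and a transcriptional corepressor pair. The most level of all was mpp (NCU06270, chromosome III, 2140016 to 2142383, genome build NC12), named for the mitochondrial processing peptidase, which cuts targeting sequences from imported proteins. Its CPM was 109, 98.7 and 110 in the 3 libraries at 15 min, 104, 102 and 113 at 120 min, 106, 104 and 109 at 240 min, and 106, 106 and 107 at 360 min, a stage ratio of 1.01. All 4 stages overlapped, and the lowest and highest single values were both from the first 2 stages. rco-1 (NCU06205) and rcm-1 (NCU06842) encode the fungal counterparts of the yeast Tup1 and Ssn6 proteins, which repress transcription as a complex. rco-1 read 180, 174 and 176 CPM at 15 min, 191, 182 and 183 at 120 min, 189, 184 and 183 at 240 min, and 186, 184 and 160 at 360 min, with a stage ratio of 1.05. rcm-1 read 168, 164 and 176 CPM at 15 min, 168, 159 and 160 at 120 min, 172, 175 and 178 at 240 min, and 178, 194 and 138 at 360 min, with a stage ratio of 1.08. Both genes were lowest in 360 min replicate 3. Without that library the 360 min mean of rco-1 was 185 CPM and its stage ratio stayed at 1.05, while the 360 min mean of rcm-1 was 186 CPM and its ratio 1.14. The gene with the least spread over single libraries was NCU00517, which has no symbol: its 12 values ran from 57.0 to 62.6 CPM, 1.099-fold. It was the only steady gene whose 12 libraries lay within 1.1-fold, while 57 lay within 25% of their lowest value and 226 within 1.5-fold.

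Several of the carbon and nitrogen regulators on the same list as the corepressor genes moved instead. Of the 15 genes of that list, 7 reached the floor and only rco-1 and rcm-1 were steady. cre-1, the carbon catabolite repressor, fell from 364 ± 16.6 CPM at 15 min to 74.3 ± 2.17 CPM at 120 min (n = 3 each, log2 change −2.35, edgeR adjusted p = 2.52e-12), cpc-1, the activator of amino acid synthesis genes, fell from 2465 ± 131 to 1155 ± 94.3 CPM (−1.15, adjusted p = 3.51e-10), and col-26, a regulator of starch use, fell from 345 ± 7.27 to 107 ± 3.20 CPM (−1.74, adjusted p = 3.11e-13). For these genes, which the rule did not choose, the changes were far beyond the spread between libraries.

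**Figure D3:**
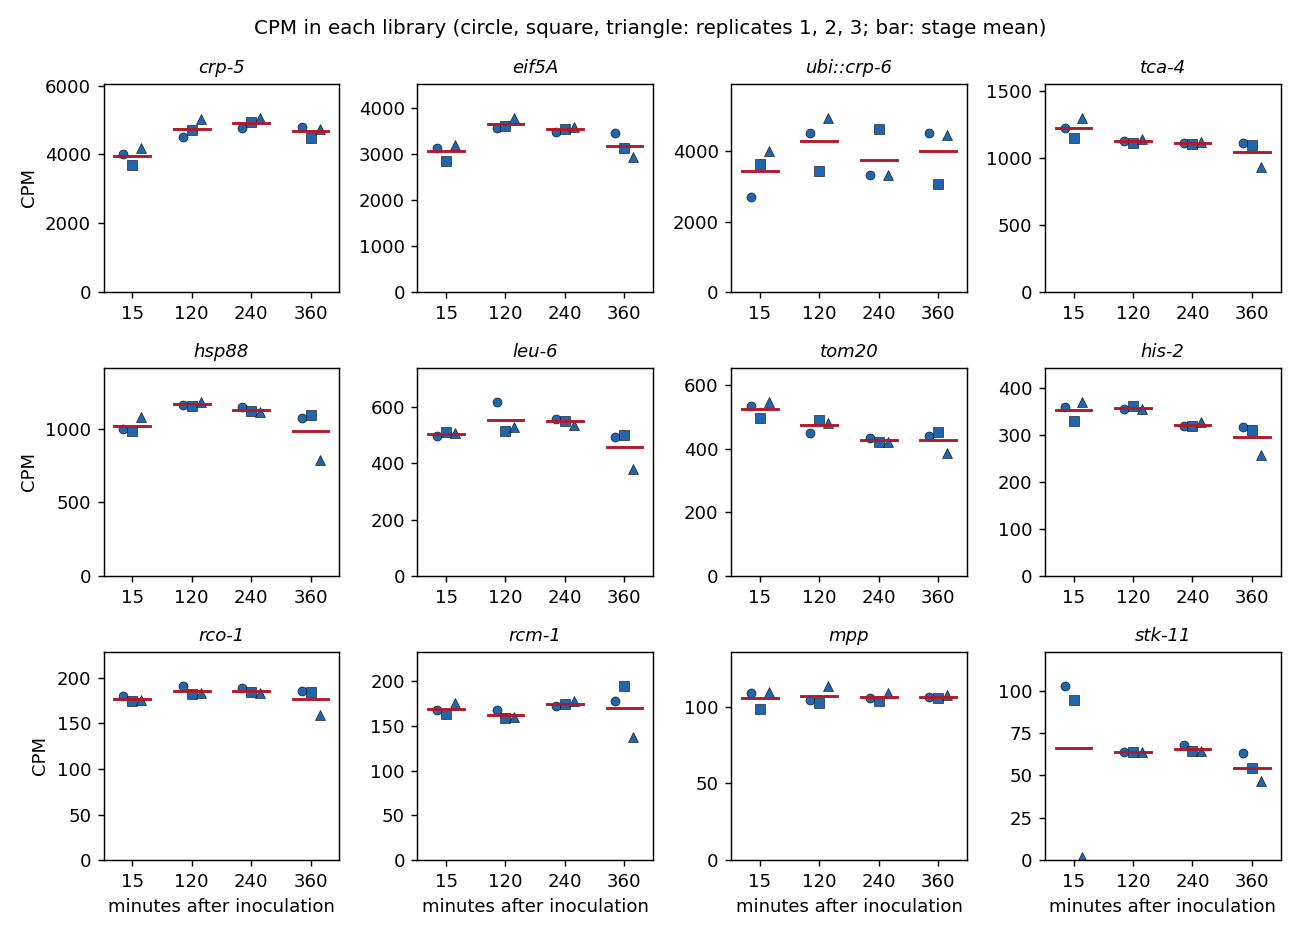
CPM of 12 steady genes in every library, by minutes after inoculation, with replicates 1, 2 and 3 as circles, squares and triangles and the stage mean as a bar, each axis starting at 0. Most libraries lie near the bars, 360 min replicate 3 lies low in hsp88 (785 CPM) and leu-6 (381 CPM), ubi::crp-6 is spread at every stage, and stk-11 is at 1.66 CPM in 15 min replicate 3.

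The most abundant steady genes that carry a symbol belonged to translation. Of the 24 steady genes at 1000 CPM or more, 8 carry one, and the products of the others were not looked up. The highest means were those of NCU07420 (4937 CPM, no symbol) and of crp-5 (NCU04552, 4578 CPM), a protein of the cytosolic ribosome. crp-5 read 4026, 3681 and 4199 CPM at 15 min, 4507, 4716 and 5026 at 120 min, 4767, 4940 and 5047 at 240 min, and 4810, 4488 and 4729 at 360 min. The 3 values at 15 min were the lowest of the 12, and its stage ratio of 1.24 was near the limit. crp-4 (NCU04331), another ribosomal protein gene, had a stage ratio of 1.16 at a mean of 3546 CPM, and rap-1 (NCU03393), of a ribosome-associated protein, had the same ratio at 3709 CPM. eif5A (NCU05274) encodes a translation factor that helps ribosomes through difficult sequences. It read 3139, 2843 and 3200 CPM at 15 min, 3561, 3609 and 3772 at 120 min, 3485, 3536 and 3593 at 240 min, and 3445, 3139 and 2938 at 360 min, a stage ratio of 1.19. At 120 and 240 min it lay above every library of the 2 outer stages. Of the 24 steady genes at 1000 CPM or more, 18 had their highest mean at 120 or 240 min and 23 their lowest at 15 or 360 min. Of all floor genes, 18.0% were highest at 120 min and 6.64% at 240 min. Their lowest mean fell at 15 min in 35.1% and at 360 min in 35.1%. These shares cover all levels and not abundant genes alone. The 2 libraries richest in ribosomal RNA belong to the outer stages, and their part was not tested. Of the 88 steady genes under 100 CPM, 25 had their highest mean at 120 or 240 min, while 31 had their lowest at 15 min and 19 at 360 min.

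Divided by the length of the gene's span in kilobases, introns included, crp-5 led with 2515 CPM per kb, followed by crp-4 (2238), NCU03988 (2032), eif5A (1949) and NCU09109 (1929). The median of all steady genes was 52.0 CPM per kb, and the lowest was ro-1 (NCU06976), the dynein heavy chain, with 6.75 CPM per kb over a span of 14276 bases. The 10 measured genes named for the cytosolic ribosome all reached the floor, and their stage ratios ran from 1.16 to 1.48, with 4 of them steady. Of the others, crp-2 had a ratio of 1.26, just beyond the limit, and cyh-2, in which cycloheximide resistance arises, rose from 3141 ± 185 CPM at 15 min to 4661 ± 96.5 CPM at 120 min (log2 change 0.51, adjusted p = 5.38e-05).

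ubi::crp-6 (NCU04553), which encodes ubiquitin fused to a ribosomal protein, met the rule without being level. Its CPM was 2691, 3641 and 3985 at 15 min, 4501, 3425 and 4918 at 120 min, 3306, 4609 and 3322 at 240 min, and 4492, 3074 and 4454 at 360 min. High and low values occurred within every stage, so the stage means differed little although single libraries differed up to 1.83-fold. The ubiquitin unit is nearly identical to the repeats of the polyubiquitin gene ubi, which lay between 23.6 and 59.6 CPM in all libraries. Whether reads were shared between such copies was not tested. stk-11 (NCU03197), a serine/threonine kinase, met the rule only through an average. It read 102 and 94.7 CPM in 15 min replicates 1 and 2 but 1.66 CPM in replicate 3 (101 counts), and lay between 46.6 and 68.1 CPM at all later times. Without 15 min replicate 3 its mean at 15 min was 98.6 CPM and its stage ratio 1.80. It was the only steady gene with a more than 4-fold range over the libraries, and 15 of the 250 had a coefficient of variation above 20% in any stage, 13 of them at 360 min.

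Genes of mitochondrial biogenesis and of the citric acid cycle formed the next group. Of the 13 genes at the floor named for the cycle, which oxidises acetyl units in the mitochondrial matrix, 5 were steady. tca-4 (NCU07697) read 1225, 1150 and 1294 CPM at 15 min, 1124, 1107 and 1139 at 120 min, 1112, 1101 and 1120 at 240 min, and 1108, 1096 and 934 at 360 min. The 15 min libraries were the highest, 360 min replicate 3 the lowest, and the 8 libraries between them lay within a narrow band. tca-3, tca-12, tca-13 and tca-11 had stage ratios of 1.17, 1.20, 1.24 and 1.07. The other 8 cycle genes at the floor had ratios from 1.30 to 4.96, and the widest changes among them were rises: tca-14 went from 55.6 ± 4.27 CPM at 15 min to 251 ± 8.94 CPM at 120 min (log2 change 2.12, adjusted p = 2.17e-11) and tca-9 from 283 ± 15.6 to 1359 ± 22.2 CPM (2.21, adjusted p = 8.62e-11).

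Of the 22 genes at the floor that are named for mitochondrial protein import and processing, 5 were steady. Besides mpp these were tom20 and tom22, receptors of the outer membrane, tim23, the channel of the inner membrane, and oxa-1, which inserts proteins into the inner membrane. tom20 (NCU06632) read 533, 497 and 545 CPM at 15 min, 450, 491 and 480 at 120 min, 435, 421 and 422 at 240 min, and 439, 452 and 388 at 360 min. tom22 (NCU00431) read 536, 507 and 547 CPM at 15 min and between 428 and 504 CPM afterwards, and tim23 (NCU00371) read 233, 216 and 238 CPM at 15 min and between 188 and 217 CPM afterwards. All 3 were highest in fresh spores, by stage ratios of 1.23, 1.23 and 1.19, while oxa-1 (NCU01102) was lowest there, with 231 ± 14.7 CPM against 279 ± 6.32 CPM at 120 min. tom40, the channel of the outer membrane, lay beyond the limit with a ratio of 1.28, and tim9, a small carrier of the space between the membranes, rose from 65.6 ± 5.43 to 189 ± 8.84 CPM between 15 and 120 min (log2 change 1.47, adjusted p = 1.56e-10).

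Genes named for biosynthesis were steady about as often as floor genes at large: 7 of the 45 at the floor on the amino acid, purine and pyrimidine, and vitamin lists (15.6%), against 15.0% of all floor genes. Of the 32 named for amino acid requirements, 4 were steady: arg-5 of arginine synthesis (stage ratio 1.12), trp-2, a component of anthranilate synthase in tryptophan synthesis (1.15), his-2, whose enzyme takes the first step of histidine synthesis (1.21), and leu-6, which encodes the leucyl-tRNA synthetase and so serves translation rather than synthesis (1.21). his-2 (NCU09320) read 358, 330 and 369 CPM at 15 min, 355, 362 and 354 at 120 min, 320, 319 and 326 at 240 min, and 317, 311 and 256 at 360 min. The first 2 stages overlapped, and all later libraries lay below them. Of the 9 genes for purine and pyrimidine synthesis, ad-9 (1.14) and pyr-4 (1.15), which encodes the decarboxylase that completes uridine monophosphate, were steady, while pyr-3, of the first pyrimidine steps, fell from 4562 ± 113 to 1601 ± 132 CPM between 15 and 120 min (log2 change −1.57, adjusted p = 4.97e-11). nic-7, of nicotinic acid synthesis, had a ratio of 1.15.

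Signalling genes were steady at lower levels. Of 14 systematically named kinase genes at the floor, 4 were steady: stk-1 (stage ratio 1.14), stk-30 (1.18), stk-10 (1.23) and stk-11, described above. os-4 (NCU03071), the mitogen-activated protein kinase kinase kinase of the osmosensing pathway, read 86.1, 86.5 and 83.1 CPM at 15 min, 91.5, 87.1 and 84.9 at 120 min, 95.05, 91.7 and 97.2 at 240 min, and 105, 121 and 84.0 at 360 min. The values of 360 min replicates 1 and 2 were its highest and that of replicate 3 lay among the lowest. The phosphatase genes ppt-1, ppm-3 and pp-2 were steady at ratios of 1.20, 1.23 and 1.24, whereas ppm-2 of the same list rose from 323 ± 11.9 to 1594 ± 50.3 CPM between 15 and 120 min (log2 change 2.25, adjusted p = 2.66e-13). ckb-2 (NCU02754), a regulatory subunit of casein kinase II, read 229, 215 and 229 CPM at 15 min and between 176 and 194 CPM in all 9 later libraries.

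Among chromatin genes, hda-1, a histone deacetylase, had a ratio of 1.22, hat-2 1.19, dmm-2, of a complex that limits the spread of DNA methylation, 1.23, and asf-1, a chaperone of histones H3 and H4, 1.23. asf-1 (NCU09436) read 191, 182 and 194 CPM at 15 min, 163, 177 and 175 at 120 min, 177, 181 and 178 at 240 min, and 211, 216 and 207 at 360 min, so that its 360 min libraries lay above all others. dim-2, the DNA methyltransferase, was just beyond the limit at 1.255 (85.7 ± 2.35 CPM at 15 min, 69.8 ± 0.83 CPM at 120 min, log2 change −0.35, adjusted p = 8.59e-06). None of the 7 histone genes at the floor was steady. hsp88 (NCU05269), of the Hsp110 family of chaperones, was the only steady one of 6 heat shock protein genes at the floor, with 999, 984 and 1078 CPM at 15 min, 1161, 1155 and 1177 at 120 min, 1144, 1117 and 1111 at 240 min, and 1074, 1089 and 785 at 360 min. Its 360 min mean of 983 CPM lay lowest only because of replicate 3.

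Just inside the limit stood NCU03561 (1.248), NCU03827 (1.248), NCU03126 (1.249) and NCU05287 (1.2499), and just outside it stood NCU09546 (1.2501), gln-1, the glutamine synthetase (1.2502), NCU04339 (1.253) and hsp60, the mitochondrial chaperonin (1.254). gln-1 read 750 ± 49.7, 937 ± 51.1, 868 ± 14.7 and 790 ± 66.3 CPM in the order of the stages (SD, n = 3), and NCU05287 258 ± 10.9, 224 ± 3.39, 206 ± 1.20 and 224 ± 3.40 CPM.

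Whole complexes were left out by the floor. All 30 measured genes named for the proteasome, which degrades ubiquitin-tagged proteins, had at least 1 stage mean under 50 CPM. Their median was 9.07 CPM at 15 min, 165 CPM at 120 min, 139 CPM at 240 min and 163 CPM at 360 min, and 29 of the 30 rose between 15 and 120 min, where 43.1% of all genes tested did (edgeR, adjusted p below 0.05). The exception was rpn-4, which shares its name with a yeast transcription factor of proteasome genes and fell from 406 ± 22.3 to 10.5 ± 0.49 CPM. The 28 genes of respiratory complex I were below the floor as well, with medians of 16.1, 7.97, 8.19 and 11.3 CPM, and 26 of them fell between 15 and 120 min (39.6% of all genes tested).

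Genes in wide use for normalising expression were not among the steady ones. Of 13 such genes, 11 reached the floor and 0 met the rule, and the lowest stage ratio among those 11 was that of tef-1, the translation elongation factor, at 1.55. act, which encodes actin, read 127, 119 and 131 CPM at 15 min, 931, 967 and 1116 at 120 min, 1136, 1166 and 1325 at 240 min, and 1300, 1297 and 1390 at 360 min. The 15 min libraries lay far below all others, a log2 change of 2.94 ± 0.08 (SE) to 120 min (edgeR, adjusted p = 1.23e-12). gpd-1, the glycolytic enzyme glyceraldehyde-3-phosphate dehydrogenase, went from 215 ± 19.3 CPM to 4536 ± 67.8 CPM over the same interval (log2 change 4.34 ± 0.07, adjusted p = 9.19e-15), csr-1, a cyclophilin, from 255 ± 15.1 to 1782 ± 60.6 CPM (2.75 ± 0.05, adjusted p = 1.80e-14), and vma-2, a subunit of the vacuolar ATPase below the floor at 15 min, from 16.1 ± 0.76 to 177 ± 6.06 CPM (3.40 ± 0.04, adjusted p = 1.93e-15).

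The alpha-tubulin genes tba-1 and tba-2 had stage ratios of 4.41 and 2.28, the cytochrome c oxidase gene cya-4 3.15, and histone genes hH3, hH4-1 and hH4-2 2.25, 2.44 and 2.34. Bml, the beta-tubulin gene, changed least after tef-1, from 619 ± 25.7 CPM at 15 min to 834 ± 15.4 at 120 min, 984 ± 20.8 at 240 min and 981 ± 128 at 360 min (stage ratio 1.59; log2 change between 15 and 360 min 0.36 ± 0.07, adjusted p = 0.000475). Between 15 and 120 min 12 of the 13 rose and ubi fell, where 43.1% of all genes tested rose and 39.6% fell. Between 240 and 360 min 2 of the 13 fell, where 21.1% of all genes tested did, and the other 11 did not pass the test (edgeR, adjusted p below 0.05). Under the TMM scaling described below 0 of the 13 met the rule as well, and their lowest ratio at the floor was 1.46.

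**Figure D4:**
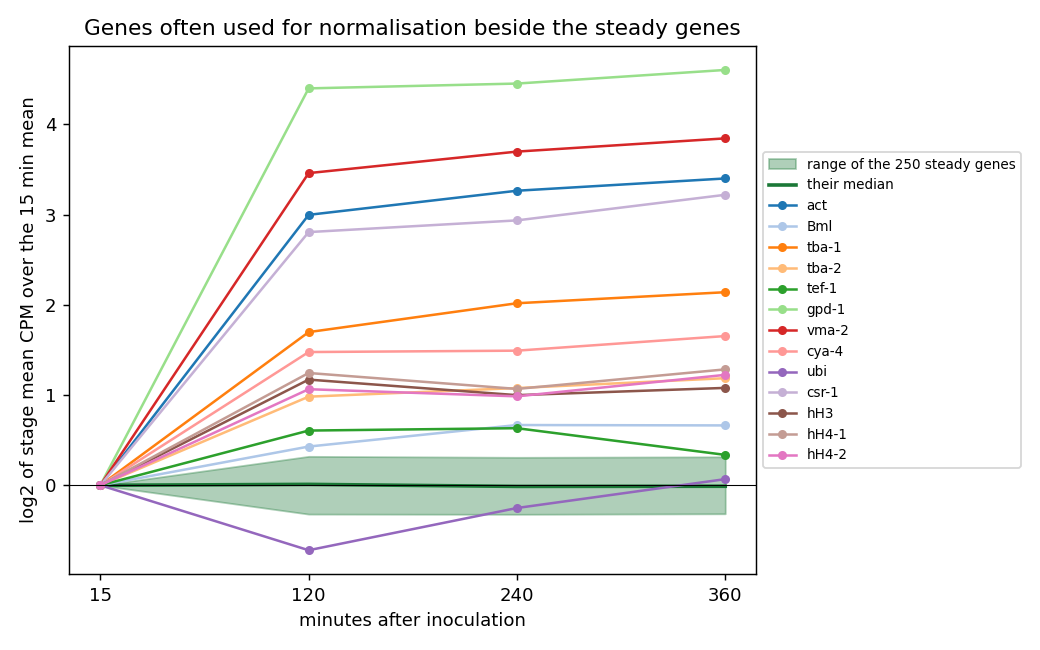
Stage mean CPM relative to the 15 min mean, on a log2 scale, for 13 genes often used for normalisation, with the range and median of the 250 steady genes in green, which the rule confines to the band. act, gpd-1, csr-1 and vma-2 rise by 2.75 to 4.34 between 15 and 120 min in the edgeR fit, and ubi lies below the others.

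Because the rule used all libraries, the stage ratio was also read in libraries left out of a choice made on fewer libraries. The rule was applied to 2 replicates of each stage and the stage ratio then taken from the single remaining library of each stage. Chosen on replicates 2 and 3, 208 genes had a median ratio of 1.16 in replicate 1, where 87.5% of them lay within the limit and 99.0% within 1.5. Chosen without replicate 2, 251 genes had a median of 1.23 there, with 55.0% within the limit and 96.0% within 1.5. Chosen without replicate 3, 263 genes had a median of 1.28 there, with 42.6% within the limit and 86.3% within 1.5. Over all genes at the floor, 17.5%, 12.99% and 10.1% lay within the limit in the same 3 readings, and 39.2%, 35.8% and 31.8% within 1.5. The low shares in replicates 2 and 3 went with the libraries richest in ribosomal RNA, 15 min replicate 2 and 360 min replicate 3. The part of that RNA in the lower shares was not tested. Replicate numbers here only name libraries, so each ratio in left-out libraries joins libraries that need not belong together. The genes chosen in each reading were a set of their own and not the steady genes of the full rule. Since part or all of the spread between libraries may be technical, these readings are no independent test of steadiness.

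**Figure D5:**
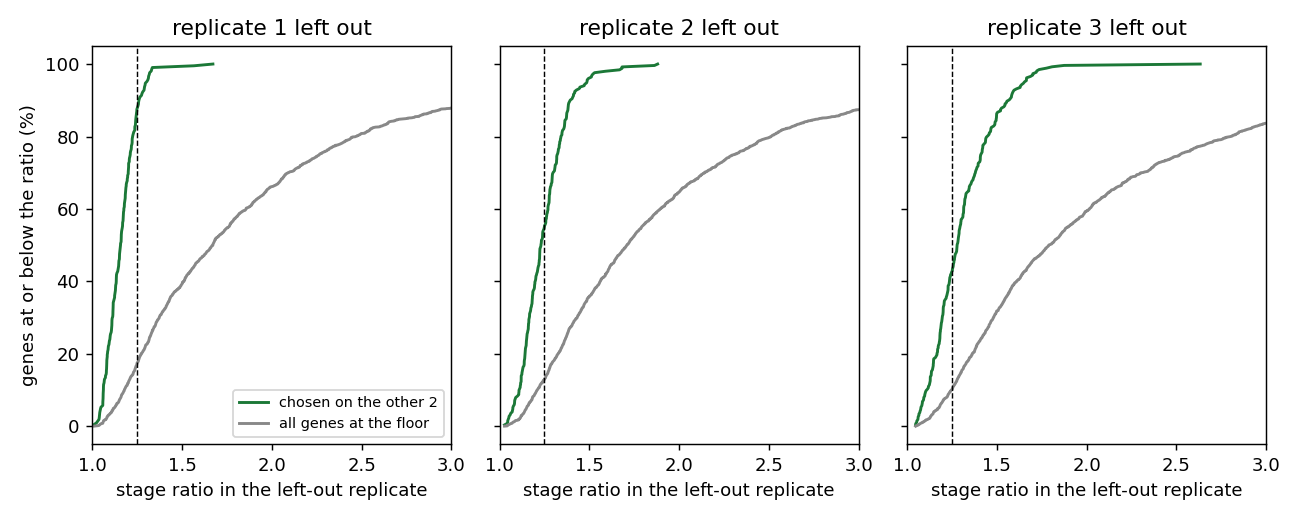
Percent of genes at or below each stage ratio in the replicate left out, for genes chosen on the other 2 replicates (green) and for all genes at the floor (grey), with the limit of 25% dashed. The green curves cross the limit at 87.5%, 55.0% and 42.6%, and the grey ones at 17.5%, 12.99% and 10.1%.

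Which genes counted as steady depended strongly on how libraries were scaled. The rule used library totals. TMM factors, which equalise the bulk of genes rather than the totals, were 0.888 to 0.950 at 15 min, 0.951 to 0.983 at 120 min, 0.987 to 0.990 at 240 min and 1.12 to 1.17 at 360 min. On the TMM scale 171 genes met the rule and 98 of them were among the 250 (39.2% of the 250 and 57.3% of the 171). Upper-quartile scaling gave 165 genes, of which 20 were shared (8.0% of the 250 and 12.1% of the 165), DESeq2 size factors gave 171 with 57 shared (22.8% and 33.3%), and totals without ribosomal RNA genes gave 259 with 227 shared (90.8% and 87.6%). The median log2 difference of the steady genes from 15 to 360 min was −0.01 relative to totals, against −0.31 on the TMM scale, −0.46 with DESeq2 size factors and −0.56 with upper-quartile scaling. The median change of all 8118 tested genes over that interval was 0.35 with totals, 0.05 with TMM and −0.20 with upper-quartile scaling. The median of the 1671 genes at the floor was −0.20 with totals, −0.50 with TMM, −0.65 with DESeq2 size factors and −0.75 with upper-quartile scaling, so in these 4 scalings the steady genes lay above the floor genes, and in the 3 given for all tested genes they lay below those.

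In all, 19 genes met the rule under each of the 5 scalings. crp-5 was the most abundant, with stage ratios of 1.24 by totals, 1.21 by TMM, 1.24 by upper quartile, 1.23 by DESeq2 size factors and 1.20 without ribosomal RNA genes. os-4 had 1.21, 1.06, 1.21, 1.13 and 1.20 in the same order, stk-10 1.23, 1.18, 1.22, 1.20 and 1.19, and stk-30 1.18, 1.15, 1.24, 1.16 and 1.17. The others have no symbol, the 4 most abundant of them being NCU02509 (3120 CPM), NCU03126 (393 CPM), NCU03199 (357 CPM) and NCU00103 (251 CPM). mpp was not among them: level by totals, it had a ratio of 1.22 by TMM and 1.45 by upper quartile. rco-1 likewise had 1.24 and 1.46. On the TMM scale 73 genes entered that totals had left out, among them cyc-1, cytochrome c (1.37 by totals and 1.15 by TMM), and crp-3 of the ribosome (1.28 and 1.22).

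A test of no change answers a different question from the rule, and the rule used the same contrasts, so nothing is read from the following counts. Fitted with edgeR on the TMM scale at an adjusted p below 0.05, 113 of the 250 were called between 15 and 120 min (35 up, 78 down), where 82.7% of all genes tested were called (43.1% up, 39.6% down). Between 120 and 240 min 48 were called (3 up, 45 down; all genes 22.3%, with 12.6% up and 9.73% down), and between 240 and 360 min 155 (0 up, 155 down; all genes 41.8%, with 20.7% up and 21.1% down). Between 15 and 360 min 204 were called (0 up, 204 down; all genes 84.0%, with 44.0% up and 40.0% down). The directions were not the same in each scaling, and the rule itself held the genes level on library totals. With library totals alone the same counts were 91 (50 up, 41 down), 16 (5 up, 11 down), 54 (34 up, 20 down) and 129 (58 up, 71 down). All genes tested gave 6667 (3600 up, 3067 down), 1575 (1134 up, 441 down), 3945 (3367 up, 578 down) and 6753 (4177 up, 2576 down). On the TMM scale the count between 120 and 240 min also turned on single libraries, being 23 without 120 min replicate 2, 19 without 120 min replicate 3, 21 without 240 min replicate 2, 13 without 240 min replicate 3 and 93 without 360 min replicate 3. In the same order the counts over all genes tested were 1253, 1335, 1122, 1102 and 2578, against 1812 with every library, so the calls over all genes moved as well. The rule set its limit of 25% on library totals. Against a difference of 25% on the TMM scale (edgeR glmTreat) 0, 0, 1 and 91 of the 250 were called in the 4 intervals. Of the 250, 0, 0, 15 and 98 had an unadjusted p below 0.05 there. The same test called 5665, 171, 592 and 5894 of all 8118 genes.

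Level means did not imply stages that overlap. In 203 of the 250 genes (81.2%) every library of the highest stage lay above every library of the lowest, against 96.2% of all genes at the floor, and in 47 the 2 stages overlapped. The 2 stages were picked from the same values as the highest and lowest of 4, which favours separation, so the count is a description and no test of change. The highest mean fell at 15 min in 84 genes (33.6%, against 52.8% of all floor genes), at 120 min in 75 (30%, against 18.0%), at 240 min in 25 (10%, against 6.64%) and at 360 min in 66 (26.4%, against 22.6%). The lowest fell at 15 min in 81 (32.4%, against 35.1%), at 120 min in 40 (16.0%, against 17.8%), at 240 min in 49 (19.6%, against 11.97%) and at 360 min in 80 (32.0%, against 35.1%). In 87 genes (34.8%) the SD of the 4 stage means on the log2 scale was below the SD between libraries of a stage, against 7.06% of the genes at the floor, a difference that the rule brings about. The spread between libraries of a stage, which the rule did not use, was much the same: the median coefficient of variation was 4.59%, 3.11%, 2.24% and 7.31% for the steady genes in the order of the stages, and 4.35%, 3.36%, 2.20% and 8.15% for all genes at the floor.

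Features outside the measurements set the steady genes little apart. Their median gene span was 2566 bases, against 2598 bases for the other 1403 genes at the floor. All 250 were annotated as protein coding, and 16.4% carried a gene symbol, against 21.7% of all floor genes. Steady genes made up between 13.2% (chromosome VII, 19 of 144) and 17.6% (chromosome VI, 24 of 136) of the floor genes of each chromosome, with 69 of 428 on chromosome I. Of 405 neighbouring pairs of protein-coding genes at the floor, 12 had both genes steady. ubi::crp-6 and crp-5 were such a pair (chromosome VII, 1462151 to 1466472, 151 bases apart), as were NCU03199 and stk-10 (chromosome I, 4886538 to 4895320), both of which met the rule under every scaling, and NCU02367 and tca-3 (chromosome VII, 2730385 to 2737209). In 3 pairs the spans overlapped, among them NCU03826 (3356 CPM) and NCU03827 (263 CPM) on chromosome V. Spans of 73 of the 250 genes overlapped that of another gene, where reads of the same strand could have been shared between them.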

How the data were processed

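Strand-specific mRNA libraries of 12 samples were sequenced by the study. Reads were trimmed, aligned to the N. crassa OR74A version 12 genome with HISAT2 2.1.0, filtered at an alignment quality of 20 and assigned to annotated genes with StringTie 1.3.3b, per the methods and the submitters' processing notes, which also list CASAVA 1.8.2. The authors deposited a table of counts per gene, which the StringTie script derives from coverage and rounds, with a read length setting not given in the sources used here. A second deposited table holds the authors' own fold estimates between stages and was not used. Per-sample columns left out numbered 0. Ribosomal RNA genes, with 1.98% to 11.7% of counts per library, stayed in the totals.

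CPM, stage means and SD (n = 3) were computed with Python 3.11.15 and pandas 2.3.3. Gene symbols, spans and chromosomes came from the RefSeq annotation of NC12, in which 10590 of 10592 identifiers were found. It holds no product names, so genes were grouped by symbol families (21 lists, with 36 steady genes in them) written after the steady genes were known, and planned groups by product, promoter motifs, GC content and exon number were not run. No gene was found under a symbol for the TATA-binding protein, which is not analysed here. Tests used edgeR 4.0.16 (TMM, filterByExpr, quasi-likelihood F test, 8118 genes, Benjamini-Hochberg adjustment) in R 4.3.3 with all 12 libraries in 1 fit, and adjusted p-values for single genes in the text are from it. DESeq2 1.42.0, other scalings, limits and floors, leaving out each library, and a replicate term were alternatives. Scripts were tested on simulated data. Genes named were the 12 steady genes of highest CPM, the 12 of lowest ratio, 4 on each side of the limit, the 3 of highest CPM in a group with 3 or more steady genes, the reference genes and the 12 most abundant steady under every scaling, 71 in all, and other genes in the text were chosen after their values were seen. The genes and lists were chosen with earlier results of these data known.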

Additional observations from a re-analysis of the deposited data

How the results depend on the processing

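The number of steady genes was within 1.5 times the 250 under TMM (171), DESeq2 size factors (171), totals without ribosomal RNA genes (259), a floor of 25 CPM (348) and stage medians in place of means (252), and between 215 and 265 when single libraries were left out. It became 165 with upper-quartile scaling, 32 with a limit of 1.1, 629 with a limit of 1.5 and 153 with a floor of 100 CPM, the last 3 by construction. Steady genes called by edgeR between 15 and 120 min became 210 with upper-quartile scaling (all genes 6721). They became 0 against a difference of 25% (glmTreat on the TMM scale, 0 at an unadjusted p below 0.05, all genes 5665). Between 120 and 240 min they became 16 with library totals alone (all genes 1575), 0 against a difference of 25% (0 unadjusted) and 13 to 93 without single libraries. Between 240 and 360 min they became 54 with totals (all genes 3945) and 1 against that difference. Between 15 and 360 min they became 129 (all genes 6753) and 91 (all genes 5894). Among all genes, calls between 120 and 240 min (1812) became 171 and between 240 and 360 min (3390) became 592 against that difference, and the former ranged from 1102 to 2578 without single libraries, the lowest without 240 min replicate 3 and the next, 1122, without 240 min replicate 2. Beyond the construction of that test the causes were not tested. Of 71 named genes, stage ratios in 155 of 284 combinations of gene and scaling moved by more than the replicate SD, and in 5 of 852 combinations of gene and library left out. Totals without ribosomal RNA genes were added for these ratios after seeing the data.

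Little sign was seen that replicate numbers pair the samples, though low correlations cannot exclude a shared harvest or batch. Of 18 pairs of same-numbered libraries from different stages, 3 had deviations correlated above 0.1 (range −0.17 to 0.26). Of the 12 libraries, 4 correlated best with their own number. With a replicate block 107, 40, 155 and 205 steady genes were called in the 4 intervals, against 113, 48, 155 and 204. Over all genes tested the block gave 6663, 1731, 3264 and 6767, against 6713, 1812, 3390 and 6816. The comparison with the authors' fold estimates was not run. All but 1 of the 250 genes had at least 1000 counts in every library. The floor of 50 CPM brings such counts about at these depths, so they are no test of depth.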
